A study of Homo sapiens with 17 samples.

Results

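The group described here consists of the heat shock transcription factor HSF1 and 9 heat shock proteins or co-chaperones, HSPA1A, HSPA8, HSPA9, HSPD1, HSPE1, HSP90AA1, HSP90AB1, HSPB1 and DNAJB1. The genes were taken by symbol, and all 10 were found among the 9699 transcripts (1 per gene) for which RNA-Seq and Ribo-Seq levels were given side by side. Ribo-Seq sequences the mRNA fragments that translating ribosomes protect from nuclease. Both layers are in FPKM, a fragment count scaled by transcript length and by mapped reads, so levels are per length and can be set side by side between genes. The ratio of the Ribo-Seq to the RNA-Seq level, on the log2 scale, is called the translational efficiency (TE).

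All cells were human BJ foreskin fibroblasts, an established line immortalized with telomerase, in states that run from growth arrest to oncogenic transformation. The 17 samples (9 RNA-Seq and 8 Ribo-Seq) were brought together in 12 columns, 6 for each layer, sequenced in 2 runs. Run 1 held proliferating cells in serum, quiescent cells deprived of serum, and pre-senescent cells that carried RASG12V activated by 4-OHT (tamoxifen) for 5 days. Run 2 held proliferating cells, senescent cells with RASG12V activated by 4-OHT for 14 days, and transformed cells with RASG12V expressed from a retroviral vector, knockdowns that include p16INK4A, and SV40 small T. The question for this gene group was how the mRNA and the translation of the chaperone system differed between these states. Each state was compared with the proliferating cells of its own run, as in the study.

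In 5 of the 12 columns the authors had pooled libraries (the run 1 proliferating and quiescent columns of both layers and the pre-senescent RNA column), and the other 7 held 1 library. No state therefore had a replicate within a run, and no p-value or SD is given. A ratio was called higher or lower where it passed a cut-off set, as in the study, at a fixed multiple of the local SD of all transcripts of like level. The difference between the proliferating cells of run 1 and run 2 is given as a yardstick for the spread between cultures and runs together, which cannot be told apart.

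The identity of the columns was checked first. The 8 fibroblast markers were all present, with a summed RNA level of 5467 to 7888 FPKM per column. In senescent cells VIM gave 3943 of the 5467 FPKM, above its 2956 FPKM in run 2 proliferating cells. Every other fibroblast marker was lower there, with COL1A1 at 51.6 against 1328 FPKM. EPCAM, CDH1, PTPRC and the 3 endothelial markers were not in the table, while KRT18 reached 84.5 to 257 FPKM and CD68 38.3 to 132 FPKM in RNA. KRT8 RNA was 4.84 to 18.8 FPKM. KRT19 was at 39.8 FPKM in RNA and 91.1 FPKM in footprints of run 2 proliferating cells. In all other columns KRT19 was at most 4.43 FPKM in RNA and 8.96 FPKM in footprints. For the senescent and the run 2 proliferating Ribo-Seq samples the titles and the condition labels contradicted each other, and the titles were followed. Under that assignment 7 proliferation markers summed to 24.9 FPKM in senescent and 446 FPKM in proliferating Ribo-Seq, against 13.9 and 277 FPKM in RNA. CDKN2A (p16INK4A), targeted in transformed cells, had an RNA level of 6.75 FPKM in run 2 proliferating cells and 12.6 FPKM in the transformed column, against its knockdown label, and a footprint level of 8.92 and 5.51 FPKM. The measured CDKN2A transcript was not checked to be the p16INK4A form, which leaves the knockdown undecided. HRAS RNA, read for the RAS label, was 1284 FPKM in run 2 proliferating cells and 312 FPKM in the transformed column. HRAS footprints were 2058 and 212 FPKM. HRAS RNA was 2087 FPKM in senescent cells, and 2102 FPKM in pre-senescent cells against 2415 FPKM in their control. The cause of the low HRAS level in the transformed columns was not tested. The transformed columns are therefore referred to as the libraries labelled transformed. In all of these bulk libraries, fewer expressing cells and less RNA per cell cannot be told apart.

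Heat shock proteins are molecular chaperones that keep other proteins folded, disaggregate misfolded ones or hand them on for degradation. HSF1 is their master transcriptional activator, which is held inactive by chaperones in unstressed cells and, after heat or other proteotoxic stress, assembles and binds inverted repeats of a short unit, the heat shock element, in chaperone promoters. Inducible members such as HSPA1A are classically low in unstressed cells, whereas constitutive members such as HSPA8 and HSP90AB1 are among the most abundant proteins of the cytosol.

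The heat shock element was looked for as the 8-letter motif GAANNTTC, 2 inverted units, in RefSeq promoters of build GRCh38.p14 that run from 250 bases before to 50 bases after a start site. The motif is its own reverse complement, so both strands were read together. Of the 10 genes, 9 had an entry, with 15 start sites in all, and 7 of these 9 genes held the motif in at least 1 window. Over all 35116 windows the motif was found in 6.77%, against 53.3% of the 15 windows here. Counted by gene, 8.21% of all genes held it, against 77.8% of these 9. In a longer form, which overlaps the shorter one, a further unit on either side extends the repeat to 3 alternating units. It was found for 4 genes (HSPA8, HSPD1, HSP90AA1 and HSP90AB1), 44.4% of the 9, against 0.608% of all genes. Counted by window, the shares were 26.7% here and 0.490% of all windows. Neither form was present in the windows of HSPA9 and HSPE1. A motif match is a description of the letters and not a binding site.

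These promoter stretches are shown because they carry the letters that the members share, with the element in capitals, 5′ to 3′ on the strand of the gene.
HSPA1A, chr6:31815425-31815456, plus strand: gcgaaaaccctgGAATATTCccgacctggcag
HSPA1B, chr6:31827621-31827652, plus strand: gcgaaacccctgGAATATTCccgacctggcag
HSPB1, chr7:76302479-76302510, plus strand: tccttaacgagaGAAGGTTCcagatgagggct
HSPA8, chr11:123062167-123062203, minus strand: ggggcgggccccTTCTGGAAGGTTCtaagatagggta
HSP90AA1, chr14:102087108-102087144, minus strand: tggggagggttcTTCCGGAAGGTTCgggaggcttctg
HSP90AB1, chr6:44247766-44247802, plus strand: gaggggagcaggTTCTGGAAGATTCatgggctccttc
HSPD1, chr2:197500056-197500090, minus strand: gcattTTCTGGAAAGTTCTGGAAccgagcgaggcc

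In the HSPA1A window the element began 106 bases before the start site, and in that of its near-identical copy HSPA1B it began 105 bases before. The windows of both genes were identical at 277 of 299 aligned bases (92.6%), and their starts lie 12195 bases apart. HSPA8 held a second element 230 bases before its start, and HSP90AB1 a second one 107 bases before. HSP90AA1, HSP90AB1 and DNAJB1 each have more than 1 start site, and the HSP90AA1 and HSP90AB1 elements lay in the window of 1 start site only. HSPD1 and HSPE1 face away from each other with starts 105 bases apart, so that their windows share 204 bases, and the HSPD1 element fell only in the window of its second start site. That element ended at chr2:197500085, whereas the HSPE1 window began at chr2:197500129. Its absence from the HSPE1 window thus depends on where the window was cut.

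HSF1, the factor itself (transcript ENST00000528838), had fewer footprints than its RNA level alone would give, with a Ribo-Seq level below its RNA-Seq level in every column. Its RNA level in run 1 was 46.7 FPKM in proliferating, 41.5 FPKM in quiescent and 53.9 FPKM in pre-senescent cells. In run 2 the RNA level was 30.6 FPKM in proliferating cells, 47.8 FPKM in senescent cells and 49.7 FPKM in the library labelled transformed. The lowest value was the run 2 control, and all other columns fell within 41.5 to 53.9 FPKM. Its Ribo-Seq level was 14.2, 22.3 and 18.0 FPKM in proliferating, quiescent and pre-senescent cells of run 1, and 11.1, 11.3 and 19.1 FPKM in proliferating, senescent and transformed-labelled cells of run 2. The footprint level was thus highest in quiescence, where the RNA level was lowest within run 1, and the senescent footprint level hardly differed from its control although the RNA was 1.56-fold higher.

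Among the HSP70 proteins, HSPA1A, the stress-inducible form, had the lowest RNA level of the group. Its RNA level was 12.9 FPKM in proliferating, 12.9 FPKM in quiescent and 8.75 FPKM in pre-senescent cells of run 1. In run 2 it was 11.2 FPKM in proliferating cells, 6.09 FPKM in senescent cells and 14.8 FPKM in the library labelled transformed. Both RAS-induced arrest states thus had the lowest RNA levels. The HSPA1A footprint level showed the same order within run 2 (14.0, 7.31 and 22.1 FPKM), whereas in run 1 it was 18.4 FPKM in proliferating, 34.2 FPKM in quiescent and 11.0 FPKM in pre-senescent cells. Only uniquely mapped reads had been counted, so reads shared by HSPA1A and HSPA1B were lost and the levels of both genes are uncertain. HSPA1B was at a like RNA level, from 5.89 FPKM in senescent to 18.9 FPKM in run 1 proliferating cells.

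HSPA8, the constitutive cytosolic HSP70, was the most abundant transcript of the group in every column. Its RNA level was 1323, 1064 and 1517 FPKM in proliferating, quiescent and pre-senescent cells of run 1, and 953, 1284 and 1215 FPKM in proliferating, senescent and transformed-labelled cells of run 2. The corresponding footprint levels were 2288, 1567 and 2255 FPKM in run 1 and 1961, 2659.6 and 2649 FPKM in run 2. Quiescent cells had the lowest footprint level of HSPA8, and both other states of run 2 lay above their control in both layers. DNAJB1, an HSP40 that brings clients to HSP70 and stimulates its ATPase, varied least in footprints within run 2, with 83.1, 86.0 and 71.5 FPKM in proliferating, senescent and transformed-labelled cells and 117, 100.04 and 94.2 FPKM in run 1. Its RNA level was 82.85, 86.6 and 90.9 FPKM in run 1 and 69.0, 102 and 74.3 FPKM in run 2. Senescent cells therefore had the highest DNAJB1 RNA level of all columns.

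The HSP90 pair fold and hold kinases and hormone receptors, with HSP90AA1 the more inducible and HSP90AB1 the more constitutive isoform. HSP90AA1 RNA was at 863, 507 and 818 FPKM in proliferating, quiescent and pre-senescent cells of run 1 and at 499, 417 and 585 FPKM in proliferating, senescent and transformed-labelled cells of run 2. Its footprint level was 2078, 1007 and 1519 FPKM in run 1 and 1125, 1059 and 1974 FPKM in run 2. Quiescent cells stood well below the other columns of run 1, and the library labelled transformed stood well above the other columns of run 2 in footprints but less so in RNA. HSP90AB1 RNA was at 809, 625 and 914 FPKM in run 1 and at 472, 421 and 734 FPKM in run 2, with footprint levels of 1803, 1265 and 1681 FPKM and of 1133, 1345 and 2099.9 FPKM. For HSP90AB1, too, quiescence was lowest in run 1 and the transformed-labelled libraries were highest in run 2.

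Mitochondrial chaperones were represented by HSPA9 (mortalin), the matrix HSP70 that draws in imported proteins, by the chaperonin HSPD1 (HSP60) and by its lid HSPE1 (HSP10). HSPA9 RNA was at 177, 158 and 229 FPKM in proliferating, quiescent and pre-senescent cells and at 111, 136 and 132 FPKM in proliferating, senescent and transformed-labelled cells, with footprints at 585, 455 and 558 FPKM and at 318, 436 and 424 FPKM. HSPD1 RNA was at 301.2, 191 and 354 FPKM in run 1 and at 189, 159.6 and 267 FPKM in run 2. The HSPD1 footprint level was 708, 339.7 and 567 FPKM in run 1 and 438, 399 and 621 FPKM in run 2. All 3 mitochondrial chaperones were lowest in quiescence within run 1, in both layers, and highest in pre-senescence in RNA of that run.

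HSPE1 RNA was at 137, 95.0 and 173 FPKM in proliferating, quiescent and pre-senescent cells of run 1 and at 77.8, 85.5 and 137 FPKM in proliferating, senescent and transformed-labelled cells of run 2. Its footprint level was 356, 205 and 307 FPKM in run 1 but 612, 422 and 828 FPKM in run 2. The 2 runs overlapped in HSPE1 RNA but not in footprints, so that levels across runs cannot be set against each other for this gene. The small heat shock protein HSPB1 (HSP27), an ATP-independent holdase that also binds actin, had an RNA level of 332, 312 and 276 FPKM in run 1 and of 541, 528 and 276 FPKM in run 2. Its footprint level was 623, 734 and 519.7 FPKM in run 1 and 862, 498 and 283 FPKM in run 2. HSPB1 footprints spread 3.05-fold within run 2, from the highest value in proliferating cells to the lowest in the library labelled transformed.

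**Figure D1:**
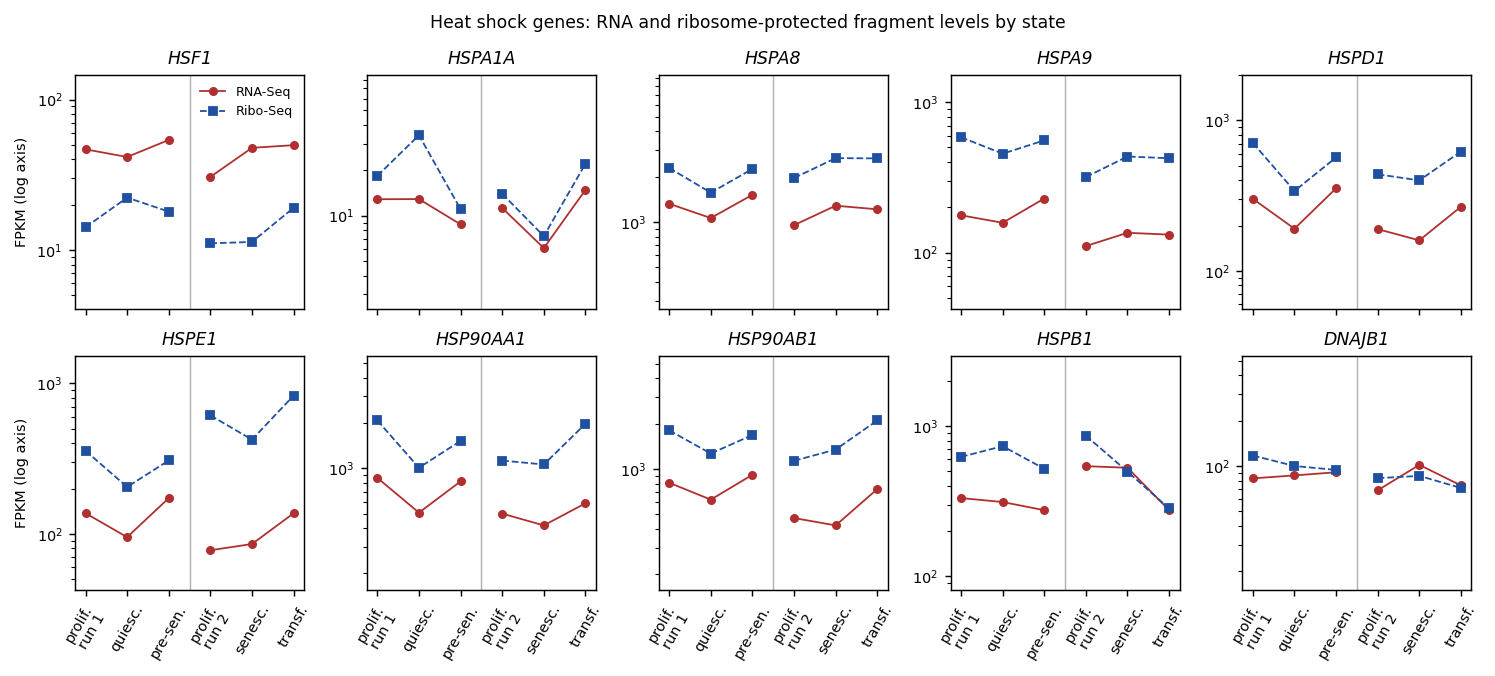
RNA-Seq (circles) and Ribo-Seq (squares) levels in FPKM on a log axis for the 10 genes, 1 point per column, with run 1 left and run 2 right of the grey line. Lines join the columns of 1 run and mark no order. HSPA1A spans 6.09 to 14.8 FPKM in RNA, while HSPE1 footprints reach 828 FPKM in run 2 and no more than 356 FPKM in run 1.

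In order of the RNA level in run 1 proliferating cells the group ran from HSPA8 through HSP90AA1, HSP90AB1, HSPB1, HSPD1, HSPA9, HSPE1, DNAJB1 and HSF1 to HSPA1A. HSP90AA1 and HSP90AB1 were neighbours whose order was reversed in quiescent, pre-senescent, senescent and transformed-labelled cells. Across the 6 columns the RNA level of a member varied between 1.48-fold (DNAJB1) and 2.44-fold (HSPA1A). Among all transcripts, HSPA8 ranked above 99.6% of RNA levels in every column, whereas HSPA1A lay between the 30.6th and 52.6th percentile.

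The proliferating cells of the 2 runs differed more for these genes than for transcripts at large. RNA levels were lower in run 2 than in run 1 for 9 of 10 members, with HSPB1 the exception at a log2 difference of 0.70, and the median difference was -0.64 on the log2 scale against -0.05 over all transcripts, of which 54.2% were lower. The median absolute difference in RNA was 0.67 for the members and 0.34 for all transcripts, while in TE it was 0.22 and 0.34. HSPE1 stood apart with an RNA difference of -0.82, a footprint difference of 0.78 and a TE difference of 1.60 on the log2 scale, a 3.03-fold higher TE in run 2 that exceeded the absolute TE difference of 97.5% of transcripts. Which part culture, library preparation or sequencing run had in this difference was not tested.

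Quiescent cells were set against proliferating cells of run 1. HSP90AA1 RNA was lower in quiescence, most other chaperones lay below control within the cut-off, and HSF1 and HSPA1A had more footprints per mRNA. HSP90AA1 was the member called lower in RNA, 1.70-fold (log2 ratio -0.77, cut-off 0.75), and no member was called higher. Over all transcripts 4.63% were called higher and 3.25% lower in RNA. The HSP90AA1 call was lost with a wider window, a 2-fold cut or upper-quartile scaling, and its log2 ratio was -0.37 against the mean of both controls and 0.02 against the control of run 2, uncalled in both. In footprints the levels were 2.06-fold lower for HSP90AA1 and 2.09-fold lower for HSPD1, with no call made on footprints alone. The RNA log2 ratios of the uncalled members were -0.66 for HSPD1, -0.53 for HSPE1, -0.37 for HSP90AB1, -0.31 for HSPA8, -0.17 for HSPA9, -0.17 for HSF1 and -0.09 for HSPB1, and 0.06 for DNAJB1 and 0.00 for HSPA1A. The median RNA ratio of the group was -0.24, against 0 over all transcripts.

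In TE, HSF1 (1.77-fold, log2 ratio 0.82, cut-off 0.80) and HSPA1A (1.86-fold, log2 ratio 0.89, cut-off 0.76) were called higher in quiescence and no member lower. The background in TE was 2.72% called higher and 5.63% lower, and both calls were lost at a 2-fold cut. The HSF1 call was also lost against the mean of both controls (log2 ratio 0.70) and the control of run 2 (0.57), whereas HSPA1A was called higher against both (0.99 and 1.09). For both genes the footprint level was higher (14.2 and 22.3 FPKM for HSF1, 18.4 and 34.2 FPKM for HSPA1A) while the RNA was within 1.12-fold. The near-identical HSPA1B was not called, with a quiescent TE log2 ratio of 0.64 at a cut-off of 0.78. Reads shared by HSPA1A and HSPA1B were lost, so the TE of both is uncertain. The remaining 8 members had TE log2 ratios between -0.40 (HSPD1) and 0.32 (HSPB1). The difference from control was larger than the difference between the controls for 0 members in RNA, against 42.4% of all transcripts, and for 7 members in TE, against 48.4% (a yardstick that shares the run 1 control). When quiescent cells were set against the control of run 2, the RNA direction of the group turned, with 9 of 10 members above it and a median of 0.24.

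Pre-senescent cells, after 5 days of RAS activation, showed slightly higher RNA and lower footprints for most chaperones, with no member called in either direction or layer. Over all transcripts 3.23% were called higher and 3.60% lower in RNA, and 1.98% higher and 6.52% lower in TE. The largest RNA ratio was that of HSPA1A at -0.56, which lay just inside its cut-off of 0.56, followed by 0.37 for HSPA9, 0.33 for HSPE1 and -0.27 for HSPB1. RNA lay above control for 7 members and footprints lay below control for 9, HSF1 being the exception at a log2 footprint ratio of 0.35. Over all transcripts 52.995% lay above control in RNA, but only 41.96% in footprints. The median log2 footprint ratio was -0.238 for the members and -0.103 over all transcripts, so lower footprints were in part shared by the whole column. TE log2 ratios were -0.55 for HSPD1, -0.55 for HSPE1, -0.45 for DNAJB1, -0.44 for HSPA9, -0.37 for HSP90AA1, -0.28 for HSP90AB1, -0.22 for HSPA8, -0.18 for HSPA1A, 0.01 for HSPB1 and 0.14 for HSF1. The median TE ratio was -0.33, but over all transcripts it was also below 0, at -0.13, with 41.2% above 0. HSPA1A in RNA and 5 members in TE exceeded the difference between the controls, where 35.9% and 57.8% of transcripts did so.

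Senescent cells, after 14 days of RAS activation, had more RNA of HSF1, DNAJB1 and HSPA8 and less of HSPA1A than run 2 proliferating cells, but no difference passed the cut-off. The background was 2.35% called higher and 5.33% lower in RNA, and 2.66% higher and 4.69% lower in TE, with wide local SDs that put the RNA cut-offs of the members at 1.16 or more on the log2 scale. The RNA log2 ratio was 0.64 for HSF1, 0.56 for DNAJB1, 0.43 for HSPA8, 0.29 for HSPA9 and 0.14 for HSPE1, and -0.88 for HSPA1A, -0.26 for HSP90AA1, -0.25 for HSPD1, -0.16 for HSP90AB1 and -0.04 for HSPB1. HSPA1A was 1.85-fold lower in RNA and 1.91-fold lower in footprints, and its copy HSPA1B had log2 ratios of -1.05 and -1.15. Against the control of run 1, 3 members lay above it in RNA and 7 below, with a median of -0.53. The RNA log2 ratio against that control was 0.03 for HSF1, -0.04 for HSPA8 and -1.08 for HSPA1A.

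The RNA of HSF1 and DNAJB1 was 1.56-fold and 1.48-fold above control, whereas their footprints were at 11.3 and 86.0 FPKM, close to the 11.1 and 83.1 FPKM of control. TE was accordingly lower, by log2 ratios of -0.61 for HSF1 and -0.51 for DNAJB1, and further members below control were HSPB1 at -0.76 and HSPE1 at -0.67. HSP90AB1 had the highest TE ratio at 0.41. Members lay on both sides of control, 5 above and 5 below in each of RNA, footprints and TE, and with upper-quartile scaling 6 lay above control in TE. HSF1, HSPA1A and DNAJB1 in RNA, and 6 members in TE, exceeded the difference between the controls, against 59.9% and 52.6% of all transcripts (the run 2 control is shared).

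The libraries labelled transformed had more RNA of all members but HSPB1 than run 2 proliferating cells, and more footprints of all but HSPB1 and DNAJB1. Footprints lay above control for 8 of 10 members, against 50.3% of all transcripts. RNA lay above control for 9 of 10 members (8 with upper-quartile scaling) and the median log2 ratio was 0.38, against 0.08 over all transcripts, of which 58.0% lay above control. No member was called in RNA, where 3.01% of transcripts were called higher and 3.09% lower. RNA log2 ratios were 0.82 for HSPE1, 0.70 for HSF1, 0.64 for HSP90AB1, 0.49 for HSPD1, 0.40 for HSPA1A, 0.35 for HSPA8, 0.25 for HSPA9, 0.23 for HSP90AA1 and 0.11 for DNAJB1. Against the control of run 1 the direction turned, with 8 of 10 members below it and a median of -0.15.

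HSPB1 was 1.96-fold lower in RNA (log2 ratio -0.97, within its cut-off) and 3.05-fold lower in footprints. Its TE was called lower, by a log2 ratio of -0.64 at a cut-off of 0.59, and no member was called higher, where 2.34% of transcripts were called higher and 5.56% lower. The HSPB1 call was lost at a 2-fold cut, after centring on the median (-0.57), with upper-quartile scaling (-0.52) and against the control of run 1 (-0.87, where the cut-off was wider). HSP90AA1 was on the other side, with a TE log2 ratio of 0.58 just inside its cut-off of 0.60 and a 1.76-fold higher footprint level. HSP90AB1 footprints were 1.85-fold and HSF1 footprints 1.72-fold above control, with RNA 1.56-fold and 1.62-fold above it. HSF1, HSPA1A and HSPB1 in RNA and 5 members in TE exceeded the difference between the controls, against 46.5% and 40.6% of all transcripts.

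**Figure D2:**
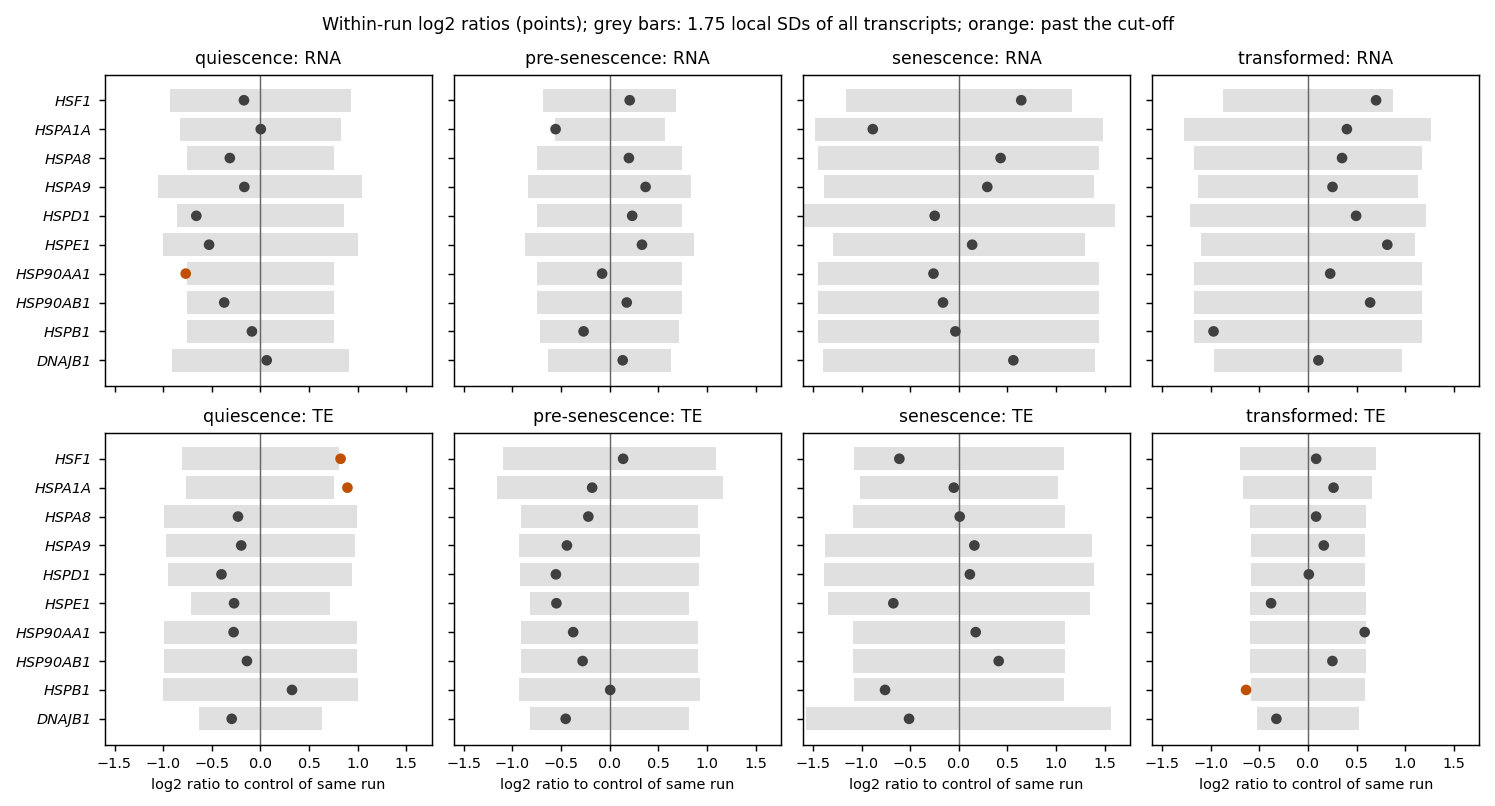
Points are log2 ratios of each state to the proliferating cells of its own run, for RNA (top) and TE (bottom), with grey bars for the cut-off from the local SD of all transcripts of like level. Orange points lie past the bar: HSP90AA1 RNA, HSF1 TE and HSPA1A TE in quiescence, and HSPB1 TE in the libraries labelled transformed.

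Members differed widely in TE. HSF1 had the lowest TE of the group in all columns, between -2.08 in senescence and -0.90 in quiescence on the log2 scale, which put it at or below the 11.4th percentile of all transcripts. HSPA9 was at the upper end in all columns, from 1.28 to 1.72, between the 86.8th and 91.5th percentile. HSPA9, HSPD1, HSPE1, HSP90AA1, HSP90AB1 and HSPA8 lay above the median of all transcripts, which was 0.22 to 0.40, in all 6 columns.

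The members that moved most in TE were HSPE1, HSPB1, HSF1 and HSPA1A. HSPE1 had a TE of 1.38, 1.11 and 0.83 in proliferating, quiescent and pre-senescent cells and of 2.98, 2.30 and 2.60 in proliferating, senescent and transformed-labelled cells, with no overlap between the runs. HSPB1 had a TE of 0.91, 1.23 and 0.91 in run 1 and of 0.67, -0.08 and 0.04 in run 2, of which the transformed-labelled value was the one called. HSPA1A had a TE of 1.41 in quiescence and of 0.26 to 0.58 in the other 5 columns.

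Genes that work as pairs did not always move together. HSPD1 and HSPE1, chaperonin and lid, which share a promoter region, had RNA log2 ratios of -0.66 and -0.53 in quiescence, 0.23 and 0.33 in pre-senescence, -0.25 and 0.14 in senescence, and 0.49 and 0.82 in the libraries labelled transformed. In RNA, HSP90AA1 and HSP90AB1 shared the side of control in quiescence, senescence and the libraries labelled transformed. Their pre-senescent RNA log2 ratios were -0.08 and 0.18. In senescent footprints the pair fell on opposite sides of control, at log2 ratios of -0.09 and 0.25. HSPA1A and HSPA1B shared the direction of footprints in all 4 comparisons, at 0.90 and 0.52 in quiescence, -0.74 and -1.82 in pre-senescence, -0.94 and -1.15 in senescence, and 0.66 and 0.66 in the libraries labelled transformed. The pre-senescent TE of HSPA1B was called lower, with a log2 ratio of -1.31, while that of HSPA1A was -0.18.

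The other genes of the chaperone network were taken from a list of 78 genes, of which 64 were in the table, covering further HSP70s, the HSP110 family, small heat shock proteins, J-domain and HSP70 or HSP90 co-chaperones, mitochondrial chaperones, other heat shock factors and heat-inducible genes. In RNA, 1 was called higher and 1 lower in quiescence, 4 and 3 in pre-senescence, 0 and 3 in senescence, and 1 and 5 in the libraries labelled transformed. The shares of all transcripts called higher and lower in RNA were 4.63% and 3.25%, 3.23% and 3.60%, 2.35% and 5.33%, and 3.01% and 3.09%. In TE the calls were 2 higher and 6 lower, 0 and 10, 0 and 3, and 1 and 4 in the same order. The shares of all transcripts in TE were 2.72% and 5.63%, 1.98% and 6.52%, 2.66% and 4.69%, and 2.34% and 5.56%. The median RNA log2 ratios of these 64 genes were -0.25, 0.10, 0.16 and 0.20.

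Several of the RNA calls were on small heat shock proteins and on the testis-enriched HSP70 HSPA2. CRYAB (alphaB-crystallin), a partner of HSPB1, was at 33.8 FPKM of RNA in run 2 proliferating cells, 5.45 FPKM in senescent cells and the floor value of 1 in the library labelled transformed, at the floor in footprints as well, and it was called lower in both. In run 1 it was at 11.8, 6.63 and 2.48 FPKM in proliferating, quiescent and pre-senescent cells and was called lower in the last. HSPA2 RNA was at 37.1, 4.20 and 10.7 FPKM in proliferating, senescent and transformed-labelled cells and was called lower in both states. It was called lower in pre-senescence too, at a log2 ratio of -1.78. HSPB6 and HSPB7 were also called lower in RNA in the libraries labelled transformed, so that 3 of the 5 small heat shock proteins measured beside HSPB1 were called lower there, against 3.09% of all transcripts. HSPB6 RNA was 57.75 FPKM in run 2 proliferating cells, 13.3 FPKM in the library labelled transformed and 20.8 FPKM in run 1 proliferating cells. HSPB7 RNA was 7.79 FPKM in run 2 proliferating cells. It was at the floor of 1 in run 1 proliferating cells, and in the libraries labelled transformed in both layers. HSPA2 RNA was 15.1 FPKM in run 1 proliferating cells. Calls on these network genes were not repeated against the run 1 control. HSPB8 went the other way in pre-senescence, where it was called higher in RNA at a log2 ratio of 0.77. HMOX1, heme oxygenase, was called higher in pre-senescent RNA at a log2 ratio of 1.23, and FKBP5, an HSP90 co-chaperone, lower in senescent RNA (5.44 FPKM to the floor of 1). DNAJB9 (0.82) was also called higher and HSPB6 (-1.21) lower in pre-senescent RNA. In quiescent RNA, DNAJB9 (0.99) was called higher and DNAJC9 (-0.88) lower. In RNA of the libraries labelled transformed, DNAJB4 (-2.41) was called lower and DNAJC7 (0.99) higher.

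In TE, network genes called lower in pre-senescence included CRYAB (log2 ratio -1.81, with footprints at 1.59 FPKM) and HSF2, a second heat shock factor (-1.51). HSPB11 (-1.48), HSPB8 (-1.41), GRPEL2 (-1.25) and HSBP1, which binds HSF1 (-0.84), were called lower there as well. Called lower in TE in quiescence were, among others, CRYAB (-0.99), DNAJC9 (-0.94), MRPL18 (-0.81) and HSBP1 (-0.80). HSPB6 (1.21) and HSPA2 (0.88) were the 2 network genes called higher in TE in quiescence. BAG3 and HSPH1, heat-inducible partners of HSP70 that were chosen after their values were seen, were called in no comparison in RNA, with RNA log2 ratios of -0.13 and -0.07 in quiescence, 0.12 and 0.40 in pre-senescence, 0.25 and -0.29 in senescence, and 0.02 and 0.71 in the libraries labelled transformed. The heat shock element of 2 units was found in promoters of 21.6% of the 51 network genes with an entry, against 8.21% of all genes.

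Genes with the most similar pattern were looked for over the 8 within-run ratios (RNA and Ribo-Seq in 4 comparisons) among 5542 transcripts that reached 5 FPKM in every column. The ratios of a run share a control column, so the correlations are a description. For HSF1 the nearest were SCAF1 (Pearson r 0.910), MAP7D1 (0.891) and IER5 (0.882), the last a heat-inducible gene of the network list. For HSPA1A they were AMOTL2 (0.989), SGK196 (0.952) and HEXIM1 (0.949), and for HSP90AA1 they were DDX55 (0.989), PMPCB (0.986) and DDX23 (0.977). The correlation ignores a constant offset, so a near gene can lie on the other side of control. AMOTL2 had log2 ratios of -0.37 in quiescent footprints and -0.50 in transformed-labelled RNA, where HSPA1A had 0.90 and 0.40.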

How the data were processed

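RNA-Seq (poly(A) RNA) and Ribo-Seq (cycloheximide-treated cells) libraries of BJ fibroblasts were aligned by the authors with Bowtie to hg19, per the submitters' processing notes, keeping uniquely mapped reads. The deposited values are FPKM per transcript, over the whole transcript for RNA-Seq and over the coding sequence for Ribo-Seq, with 1 transcript per gene and values under 1 FPKM set to 1 by the authors. Some columns were pooled before deposit. The FPKM values carry no read depth of their own, and no counting interval is given.

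From these, TE and log2 ratios to the proliferating column of the same run were computed without a pseudocount in Python 3.11.15 with numpy 2.4.6 and pandas 2.3.3. The SD of the ratio was taken in a running window of transcripts ordered by level, and the multiple of it used as cut-off followed the study's methods. The procedure was tested on simulated data with 200 changed transcripts. There was no test across samples, since each state had 1 column per run and layer. The members and lists were chosen with earlier results of these data known. All 10 members are named with every value. Other genes are named from the network list where they passed the cut-off, at most the 6 largest per comparison and layer. The near-identical HSPA1B is named for its mapping limit. HSBP1 in pre-senescent TE, and BAG3 and HSPH1 in RNA, were added outside this rule. The 3 nearest by correlation are named for HSF1, HSPA1A and HSP90AA1. Alternatives were fixed cuts of 1.5-fold and 2-fold, a wider window, centring on the median, upper-quartile scaling, a pseudocount of 1, a filter of 5 FPKM, the mean of both controls and the control of the other run. Promoter sequences came from RefSeq (GRCh38.p14) and were searched for exact matches only. A further targeted gene is not reported here.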

Additional observations from a re-analysis of the deposited data

How the results depend on the processing

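The counts of members called rested on small margins. For quiescent RNA, where 1 member was called, the count was 2 with a fixed cut of 1.5-fold and 0 with a cut of 2-fold, a wider window, upper-quartile scaling, the mean of both controls or the control of the other run. Under that last choice the HSP90AA1 RNA ratio of quiescence reversed to 0.0208 on the log2 scale. For quiescent TE the 2 calls became 0 at 2-fold, and with the mean of both controls or the control of the other run they became 1 higher and 1 lower, with HSF1 lost and HSPE1 gained (-1.07 and -1.87). For pre-senescent RNA the count of 0 became 1 after centring on the median or upper-quartile scaling (HSPA1A, lower) and 1 with the control of the other run (higher), and for pre-senescent TE it became 1 with the mean of both controls or the control of the other run. At 1.5-fold, 2 senescent RNA members were called, against 0, namely HSF1 (higher) and HSPA1A (lower). Members were also called at 1.5-fold in senescent TE and in transformed RNA, where no member was called as reported. The 1 call in transformed TE became 0 at 2-fold and 2 with a wider window, a pseudocount of 1 or a filter of 5 FPKM, with HSP90AA1 gained. Centring and upper-quartile scaling lost HSPB1 and gained HSP90AA1, and the control of the other run lost HSPB1 and gained HSPE1 as higher. With 3 alternating units in place of 2, the element was found for 4 member genes and not 7. Over all transcripts the 1.5-fold cut called 10.7% higher and 8.73% lower in quiescent RNA and 18.5% and 22.4% in senescent RNA. No such share is given here for senescent TE or transformed RNA, so no count of calls at 1.5-fold is given there. Of the 80 ratios of members, 26 moved by more than 1 local SD and 1 reversed with the control of the other run. With the mean of both controls 4 moved, and none did so under the centring, scaling and pseudocount choices. Window, filter and fixed-cut choices leave each ratio as it is, so only the calls can change under them. Of the 4 calls, the wider window kept 3 and upper-quartile scaling kept 2. The causes of these changes were not tested.

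No paired analysis was possible because the table holds 1 column per state, run and layer, with replicates pooled before deposit. For the same reason the planned fits with each replicate left out and with a replicate block were not run. Counting error was not computed, and it bears most on low genes such as HSPA1A.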
